A study of Homo sapiens with 4 samples.

Results

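The messages described here encode 10 chaperones of the HSP70, HSP110 and HSP90 families: HSPA8, HSPA1A, HSPA1B, HSPA14 and HSPA9 (HSP70), HSPA4 and HSPH1 (HSP110), and HSP90AB1, HSP90AA1 and TRAP1 (HSP90). They were taken from the count table by the gene symbols that the authors' deposited table pairs with the gene IDs, and each symbol matched 1 of the 61543 genes. The study captured RNA exported from HEK293T cells, an established human embryonic kidney line, by EPN24, an engineered protein that assembles into nanocages and leaves the cell with RNA inside. Per the labels, 2 libraries came from cells with EPN24 fused to Cas13d, an RNA-binding CRISPR effector (EPN24-Cas13d), and 2 from cells with EPN24 alone (EPN24); the comparison asks which transcripts Cas13d bound. All 4 libraries were made from total RNA of cleared and filtered culture medium with added ERCC spike-in RNA, so RNA outside the cages was sequenced too, and the medium held serum. The labels give no genotype change, heat or drug treatment for either group, and they do not say whether the replicates were separate cultures, so each p-value reflects the spread between these 2 libraries a group, which may be technical only.

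HSP70 proteins bind exposed hydrophobic stretches of unfolded proteins and release them through cycles of ATP hydrolysis, HSP110 proteins exchange the nucleotide that HSP70 holds, and HSP90 proteins complete the maturation of kinases, hormone receptors and other clients. Several exist as pairs of genes, one expressed at all times and one raised by heat shock factor 1 under proteotoxic stress: HSPA8 and HSPA1A/HSPA1B for HSP70, HSP90AB1 and HSP90AA1 for HSP90, HSPA4 and HSPH1 for HSP110. Transformed lines such as HEK293T hold both kinds without heat. Not all 10 are cytosolic: the proteins of HSPA9 (mortalin) and TRAP1 work in mitochondria, although their messages are transcribed in the nucleus and translated in the cytoplasm. HSPA14 is an HSP70 that sits on ribosomes.

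The HSP70 and HSP90 pairs encode similar proteins with different letters, which bears on whether short reads can tell the genes apart; HSPA4 and HSPH1 are further apart, with 65.2% of aligned residues and 65.7% of coding bases in common and no identical 150-base stretch. HSP90AB1 and HSP90AA1 shared 86.7% of aligned residues and 75.7% of coding bases, and no 150-base stretch was identical between their transcripts. The stretch below is 90 coding bases in which both genes spell the same amino acids; capitals mark the 22 bases that differ. The transcripts are those of GENCODE 29 on GRCh38, and the stretches lie at chr6:44251420-44251509 on the plus strand (coding bases 1126 to 1215) and chr14:102083892-102083981 on the minus strand (coding bases 1150 to 1239).
HSP90AB1: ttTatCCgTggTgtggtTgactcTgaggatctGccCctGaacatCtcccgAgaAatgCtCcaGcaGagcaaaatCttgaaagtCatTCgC
HSP90AA1: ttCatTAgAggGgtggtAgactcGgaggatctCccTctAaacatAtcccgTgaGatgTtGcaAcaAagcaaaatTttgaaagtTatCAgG

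HSPA8 and HSPA1B shared 86.3% of residues and 73.7% of coding bases, again with no identical 150-base stretch. Their 90 coding bases, numbers 91 to 180 in both genes, lie at chr11:123061145-123061234 on the minus strand and chr6:31828041-31828130 on the plus strand, with capitals for the 20 differing bases. In HSPA1B 96.7% of the third codon positions in this stretch are G or C, against 43.3% in HSPA8.
HSPA8: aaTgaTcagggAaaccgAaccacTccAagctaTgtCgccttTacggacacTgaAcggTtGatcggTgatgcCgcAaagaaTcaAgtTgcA
HSPA1B: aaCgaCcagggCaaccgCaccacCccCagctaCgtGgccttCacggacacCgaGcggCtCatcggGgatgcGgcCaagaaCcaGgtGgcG

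HSPA1A and HSPA1B are the exception: their proteins are 100% identical, only 4 coding bases differ, and 66.0% of the 150-base stretches of the HSPA1B transcript also occur in that of HSPA1A. How reads that match both were assigned is not given in the sources used here, so the division of counts between these 2 genes is uncertain. They are given below as deposited, beside values for their sum.

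Gene counts summed to 5097332 and 4863449 with the fusion and to 1830860 and 1903492 with EPN24 alone, and ERCC counts to 89588 and 82049 against 445118 and 502789. A floor of 3 counts was worth 0.721 to 1.42 CPM (counts scaled to a common library size) after TMM scaling. All 8 HEK293T markers examined had counts in every library, but their summed level split by group, at 1153 and 1112 TPM (a length-scaled level) with the fusion and 59.6 and 54.9 TPM without. The 10 blood, liver and serum markers summed to 22 and 20 counts with the fusion and 80 and 75 without, with 6 and 6 against 3 and 2 of them at 0 and HBA1 at 0 in every library. Their part in the differences below was not tested. Of the whole-number counts above 0, 66.8% to 72.4% were even, so both mates of a read pair may have been counted. Chi-square per degree of freedom between the libraries of a group was 2.39 (EPN24-Cas13d) and 3.39 (EPN24), or 1.196 and 1.69 with counts halved, and no library was treated as a duplicate.

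After TMM scaling, 8 of the 10 chaperone messages were higher with EPN24-Cas13d and 2 were lower by edgeR's quasi-likelihood test (adjusted p under 0.05). Of all 20476 tested genes, 32.6% were higher and 48.2% lower (80.9% passed in all). Changes called by share below are in TMM-scaled values, not in percentages of counts. Scaled to total gene counts instead, 8 members were higher and 2 lower, beside 5559 and 11161 of all tested genes. The log2 fold changes were then 3.02 for HSPA8, 0.51 for HSPA4 and −1.85 for both HSP90AA1 and HSPA14. With TMM scaling the median log2 fold change of the 10 was 2.59, beside −0.96 over all tested genes. With total gene counts these medians were 2.02 and −1.53. The 2 lower messages were HSP90AA1 and HSPA14, and both were higher when the libraries were scaled to the ERCC RNA instead. In no member did the CPM of the groups overlap, which held for 91.2% of all tested genes. Together the 10 messages took up 0.368% and 0.351% of all gene counts with the fusion, against 0.0916% and 0.0890% with EPN24 alone. The difference was 3.98-fold, and it was 1.74-fold when taken over protein-coding counts only.

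**Figure D1:**
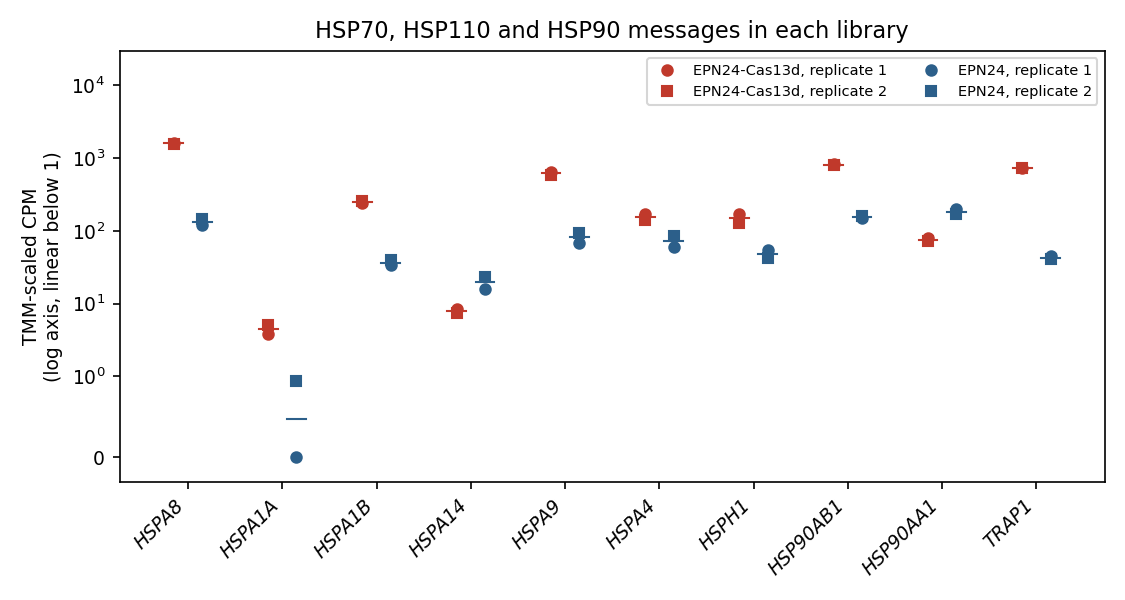
TMM-scaled CPM (log axis, linear below 1) of the 10 messages, ordered as HSP70, HSP110 and HSP90 genes; each symbol is a library and each bar the mean of 2. The EPN24-Cas13d libraries lie above the EPN24 libraries for 8 messages and below them for HSPA14 and HSP90AA1.

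HSPA8 (ENSG00000109971.14, GRCh38 chr11:123057489-123063230, minus strand), the constitutive cytosolic HSP70, was the most abundant of the 10 in EPN24-Cas13d, with 1637 and 1558 CPM, against 122 and 144 CPM in EPN24. Both fusion libraries were high and close together, far above either EPN24 library. The means were 1598 ± 56.2 and 133 ± 16 CPM (SD, n = 2 each), a 12-fold difference (log2 fold change 3.59, SE 0.12, edgeR adjusted p = 4.09e-12).

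HSPA1B (ENSG00000204388.7, chr6:31827738-31830254, plus strand), a single-exon gene of the stress-inducible HSP70, had 240.1 and 258 CPM in EPN24-Cas13d and 33.9 and 39.3 CPM in EPN24. It too was higher in both fusion libraries, 6.81-fold (log2 2.77, SE 0.15, edgeR adjusted p = 6.87e-10). Its near-identical neighbour HSPA1A (ENSG00000204389.10, chr6:31815543-31817946, plus strand) had few counts of its own, 15.8 and 20.3 against 0 and 2, so both EPN24 libraries were below the floor. The ratio of the rounded sums, 36 against 2 counts, was 9.64 after scaling, with an exact binomial 95% interval of 2.48 to 82.6, or 1.52 to 402 for 18 against 1 if both mates were counted; both cover counting error only. HSPA1A passed the edgeR test (log2 3.16, SE 1.06, adjusted p = 0.0138), but not DESeq2's Wald test (adjusted p = 0.0707) and not edgeR without EPN24 replicate 1 (log2 2.05, adjusted p = 0.0871), and with counts halved it fell below the filter and was not tested. With the counts of HSPA1A added to those of HSPA1B, the sum was higher with the fusion (log2 2.78, edgeR adjusted p = 7.57e-10). Of the then 9 members 7 were higher and 2 lower by share, beside 6684 higher and 9870 lower of 20475 tested genes. A long noncoding gene on the same strand, ENSG00000285565, overlaps HSPA1B and had 222 and 219 counts against 42.8 and 29.5; with its counts added, the log2 fold change of HSPA1B was 2.52.

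HSPA9 (ENSG00000113013.16, chr5:138553756-138575675, minus strand), which encodes the HSP70 of the mitochondrial matrix, had 648 and 590.2 CPM in EPN24-Cas13d and 68.7 and 94.7 CPM in EPN24. The fusion libraries were higher 7.60-fold (log2 2.93, SE 0.14, edgeR adjusted p = 1.93e-10).

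HSPA14 (ENSG00000187522.16, chr10:14838306-14871741, plus strand), the ribosome-associated HSP70, went the other way under TMM scaling, with 8.41 and 7.55 CPM in EPN24-Cas13d against 16.1 and 23.2 CPM in EPN24. It was 2.45-fold lower by share (log2 −1.29, SE 0.36, edgeR adjusted p = 0.00506), and higher under ERCC scaling (log2 2.08, adjusted p = 0.000288). This lower value rests on few counts, 34.8 and 30.2 against 35.7 and 49.2, and without EPN24-Cas13d replicate 2 it did not pass (log2 −1.15, adjusted p = 0.0532). ENSG00000284024, a protein-coding locus on the same strand that overlaps HSPA14, had 176 and 162 counts against 63.7 and 47.2. With those counts added to HSPA14 the direction turned and the test was not passed (log2 0.15, adjusted p = 0.501).

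HSPA4 (ENSG00000170606.16, chr5:133052013-133106449, plus strand), a constitutive HSP110, had 169.7 and 139 CPM in EPN24-Cas13d and 60.7 and 86.2 CPM in EPN24, without overlap. It was 2.11-fold higher (log2 1.08, SE 0.18, edgeR adjusted p = 9.23e-05), with log2 0.70 without EPN24 replicate 1 and 0.68 with all counts halved. HSPH1 (ENSG00000120694.20, chr13:31134973-31162388, minus strand), the heat-inducible HSP110, had 171 and 128 CPM against 54.4 and 43.1 CPM. It was 3.06-fold higher (log2 1.61, SE 0.19, edgeR adjusted p = 3.12e-06). These 2 changes were the smallest of the 8 higher members, and when only genes of at least 10 CPM were fitted, which moved the median of all genes to 0.049, neither passed and HSPA4 turned direction (log2 −0.13, adjusted p = 0.527, and 0.41, adjusted p = 0.0770, for HSPH1).

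HSP90AB1 (ENSG00000096384.20, chr6:44246166-44253888, plus strand), the constitutive cytosolic HSP90, had 824 and 813 CPM in EPN24-Cas13d and 149 and 159.5 CPM in EPN24. The replicates of each group lay close together, and the fusion libraries were 5.31-fold higher (log2 2.41, SE 0.11, edgeR adjusted p = 6.66e-11). HSP90AA1 (ENSG00000080824.19, chr14:102080742-102139699, minus strand), its inducible counterpart, had 80.3 and 71.7 CPM in EPN24-Cas13d and 199 and 169 CPM in EPN24. Under TMM scaling it was 2.42-fold lower with EPN24-Cas13d (log2 −1.28, SE 0.14, edgeR adjusted p = 2.19e-06), and under ERCC scaling it was higher (log2 2.07, adjusted p = 1.32e-06). HSP90AA1 made up 1.72% of the counts of the 10 members in EPN24-Cas13d and 23.9% in EPN24, whereas HSP90AB1 made up 18.6% and 19.9%.

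TRAP1 (ENSG00000126602.11, chr16:3651639-3717553, minus strand), the mitochondrial HSP90, showed the highest fold change of the 10 under both TMM and ERCC scaling. It had 724 and 727 CPM in EPN24-Cas13d and 44.6 and 40.7 CPM in EPN24, a 17.0-fold difference (log2 4.08, SE 0.13, edgeR adjusted p = 3.11e-12). DNASE1, which overlaps TRAP1 on the opposite strand, had 1048 and 958 counts against 63.5 and 68.5, and whether counting used the strand is not given in the sources used here, so reads of the 2 genes may not have been told apart.

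Within a library, the ratio between 2 paired messages does not depend on scaling, and it was taken here per kb of the deposited gene length. The HSP90AB1 to HSP90AA1 ratio was 17.6 and 19.4 with the fusion, against 1.28 and 1.61 with EPN24 alone. The constitutive message prevailed in the fusion libraries and was near its inducible counterpart in the EPN24 libraries, a 12.9-fold difference between the groups (log2 3.68). For HSPA8 to HSPA1A plus HSPA1B the ratio was 3.48 and 3.07 against 1.85 and 1.86, a difference of 1.76-fold in the same direction (log2 0.82).

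The HSPA4 to HSPH1 ratio of the HSP110 pair was 1.64 and 1.80 in EPN24-Cas13d and 1.84 and 3.31 in EPN24. Its difference, log2 −0.52, was smaller than the SD of the EPN24 libraries (0.60), and it was −0.098 without EPN24 replicate 2 and −0.94 without EPN24 replicate 1. Of the 2 mitochondrial chaperones, HSPA9 to TRAP1 stood at 0.475 and 0.430 with the fusion and at 0.820 and 1.23 without, 2.22-fold lower with EPN24-Cas13d. Summed over the 6 constitutive members (HSPA8, HSPA4, HSPA9, HSPA14, HSP90AB1, TRAP1) and the 4 inducible ones (HSPA1A, HSPA1B, HSPH1, HSP90AA1), the ratio was 6.44 and 6.16 against 1.85 and 2.34, 3.03-fold higher with EPN24-Cas13d. HSP90AA1 was the largest inducible term in EPN24, at 28.0 TPM beside 11.2 for HSPA1B, 4.52 for HSPH1 and 0.139 for HSPA1A. With the fusion it had 42.1 TPM beside 279, 50.4 and 5.23. The summed ratio therefore leans on this 1 gene, and it was not taken without HSP90AA1. None of these 5 ratios overlapped between the groups, the HSP110 pair only narrowly (1.80 against 1.84). The share of other gene pairs without overlap was not taken, and the CPM of 91.2% of all tested genes did not overlap. Separation is therefore not particular to these pairs. Each exact two-sided permutation test gave p = 0.333, the smallest that 2 against 2 libraries allow. None could pass, with or without adjustment for the 5.

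**Figure D2:**
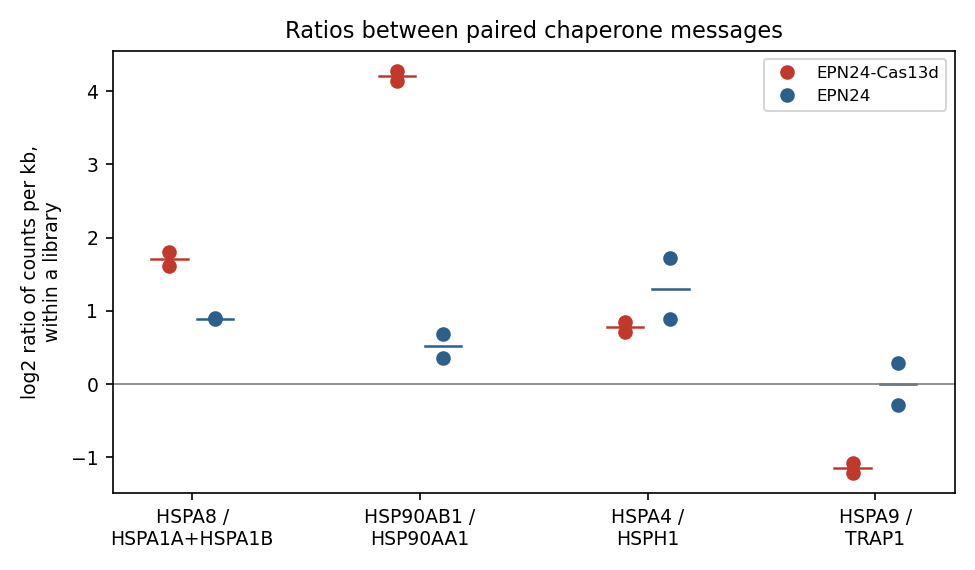
Log2 ratio of counts per kb between paired messages in each library (points) with the group mean (bars). The HSP90 pair differs most, with 4.14 and 4.28 in EPN24-Cas13d against 0.36 and 0.69 in EPN24, and the EPN24 libraries of the HSP110 pair are spread widely.

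The split did not follow the names constitutive and inducible throughout. Of the 6 constitutive members 5 were higher by share and HSPA14 was lower, and their median was log2 2.67. Of the 4 inducible members 3 were higher and HSP90AA1 was lower, and their median was log2 2.19.

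Scaling to the ERCC RNA, which was added at 1 amount per volume of medium, shifted the median over the tested genes from log2 −0.96 to 2.38. On that scale all 10 messages were higher with EPN24-Cas13d (beside 58.4% of tested genes higher and 2.33% lower), with a median of 5.95. The counts of the 10 per ERCC count were 0.209 and 0.208 in EPN24-Cas13d and 0.00377 and 0.00337 in EPN24, 58.5-fold apart, beside 14.7-fold for all gene counts (exact permutation p = 0.333). More released cages and more RNA per cage cannot be told apart in such bulk medium.

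HSPA8 stood at 76.0 and 75.4 counts per 1000 ERCC counts with the fusion and at 0.613 and 0.607 without, 124-fold apart. TRAP1 was 174-fold and HSPA1A 107-fold higher by the same measure, the latter on only 0 and 2 counts in EPN24. HSPA9 was 78.9-fold, HSPA1B 70.2-fold and HSP90AB1 54.7-fold higher. HSPH1, HSPA4, HSPA14 and HSP90AA1 followed with 31.0-fold, 21.9-fold, 4.25-fold and 4.198-fold. The folds of HSPA14 and HSP90AA1 lay below the 14.7-fold of all gene counts. In the authors' deposited table all 10 log2 fold changes were positive with an adjusted p under 0.05 (beside 30.5% of the genes given an adjusted p there). They ran from 2.03 for HSP90AA1 and 2.06 for HSPA14 to 6.92 for HSPA8 and 7.40 for TRAP1 in the authors' deposited table.

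**Figure D3:**
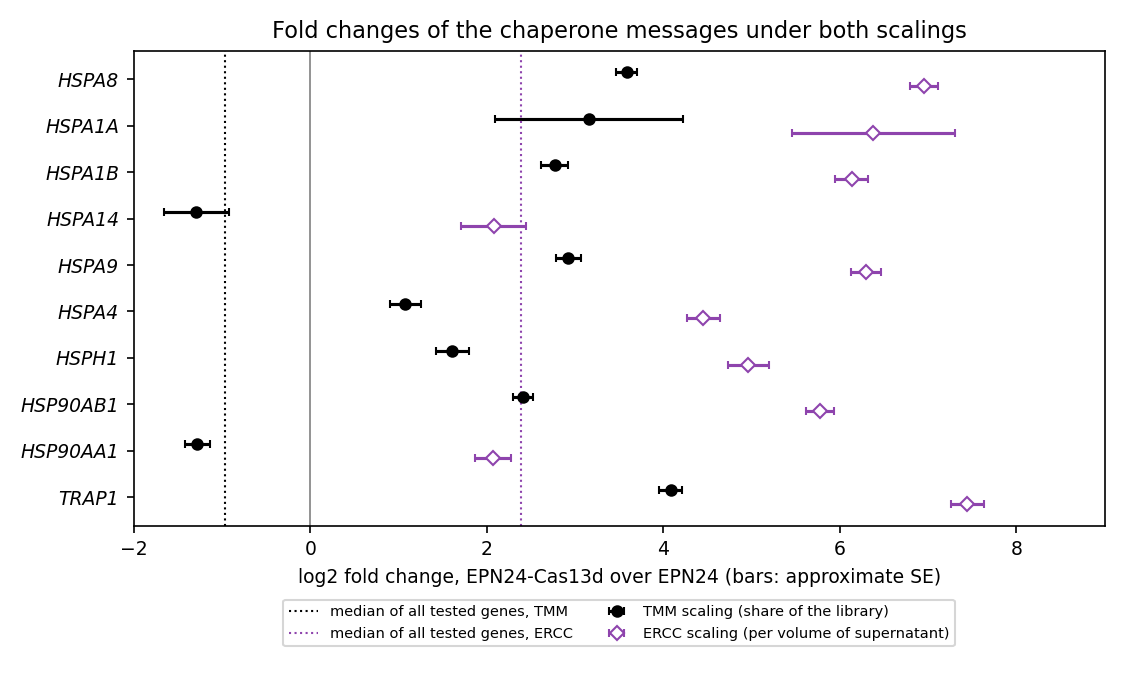
Log2 fold change of each message, EPN24-Cas13d over EPN24, with approximate SE bars, under TMM scaling (filled circles) and ERCC scaling (open diamonds); dotted lines give the median of all tested genes. HSPA14 and HSP90AA1 are the 2 members below 0 under TMM scaling, and both lie above 0 but below the dotted ERCC median of 2.38 under ERCC scaling.

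Levels between genes were compared per length, in TPM. In EPN24-Cas13d the order was HSPA8 (931 ± 54.6 TPM, SD, n = 2), HSP90AB1 (776 ± 25.5), TRAP1 (395 ± 8.10), HSPA1B (279 ± 7.55), HSPA9 (179 ± 16), HSPA4 (86.2 ± 13.9), HSPH1 (50.4 ± 11.4), HSP90AA1 (42.1 ± 4.30), HSPA14 (9.02 ± 0.834) and HSPA1A (5.23 ± 0.966). Only the neighbours HSPH1 and HSP90AA1 had overlapping library values. In EPN24 the order began with HSP90AB1 (39.7 ± 2.72 TPM), HSP90AA1 (28.0 ± 6.39) and HSPA8 (21.0 ± 0.0747). HSPA1B (11.2 ± 0.191) and HSPA4 (11.0 ± 1.44) overlapped, and so did each neighbour among TRAP1 (6.36 ± 1.10), HSPA9 (6.34 ± 0.696), HSPA14 (5.94 ± 0.900) and HSPH1 (4.52 ± 1.26). HSPA1A was last in both groups, at 0.139 ± 0.197 TPM in EPN24. HSP90AA1 thus stood near the bottom of the order with the fusion and next to the top without it. In TPM, HSP90AA1 (42.1 against 28.0) and HSPA14 (9.02 against 5.94) were higher with the fusion, opposite to their direction in TMM-scaled CPM. The direction of these 2 messages thus depends on the measure.

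GC content moved with the fold change over all tested genes (Pearson r 0.457 across 19924 genes, which are not independent replicates). The median log2 fold change was −3.05 for genes whose longest transcript held under 40% GC, −2.07 at 40 to 45%, −1.08 at 45 to 50%, 0.21 at 50 to 55%, 1.02 at 55 to 60% and 1.94 from 60%. HSPH1 (39.95%), HSPA4 (42.5%), HSPA9 (43.5%), HSPA8 (47.0%) and HSP90AB1 (48.1%) lay above the median of their bins, as did TRAP1 (56.0%), HSPA1B (58.7%) and HSPA1A (59.7%). HSPA14 (43.1%) and HSP90AA1 (45.2%), the 2 messages lower by share, had −1.29 and −1.28 beside bin medians of −2.07 and −1.08.

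The HSP70 genes spanned nearly the whole range of codon composition: G or C stood at 92.0% of the third codon positions of HSPA1B and 92.2% of HSPA1A, in the 99.2 percentile of 18927 coding genes, at 46.0% in HSPA8 and at 29.3% in HSPA14, in the 0.851 percentile. With the GC trend removed from the fold changes, an alternative chosen after the data were seen, 7 members were higher and 1 lower (beside 29.4% and 39.6% of tested genes). HSPA8 had 4.06, HSPA9 4.04, HSPH1 3.45, TRAP1 2.95, HSP90AB1 2.67, HSPA4 2.39 and HSPA1B 1.19 on the log2 scale. HSP90AA1 was at −0.49 (edgeR adjusted p = 0.00800), and HSPA14 (−0.087, adjusted p = 0.840) and HSPA1A (1.51, adjusted p = 0.267) did not pass. The part of GC content in these differences was not tested.

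**Figure D4:**
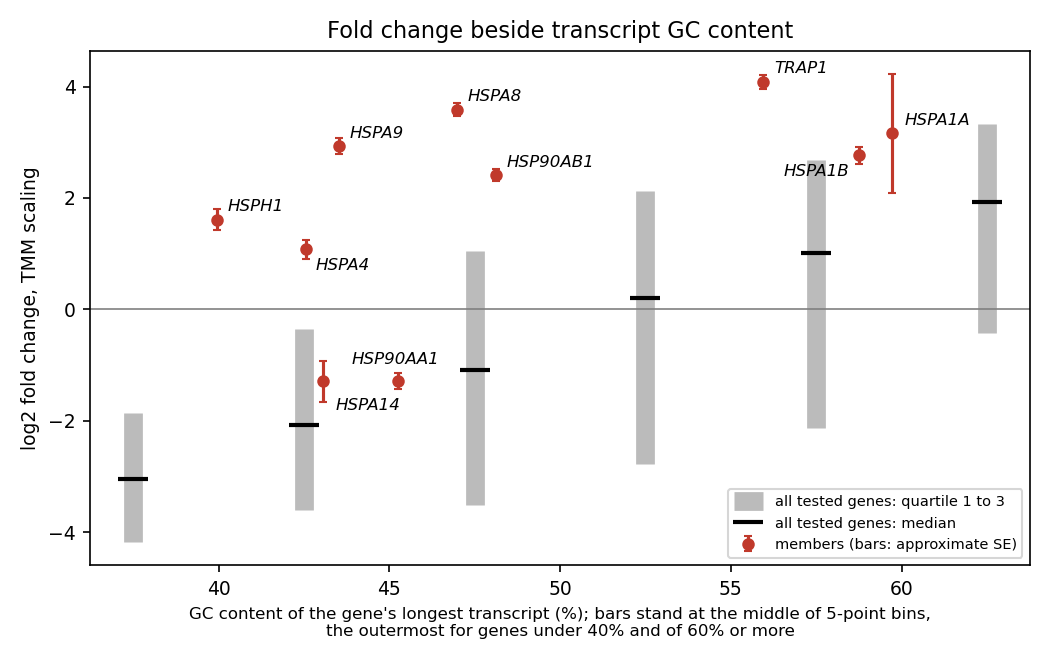
Log2 fold change (TMM scaling) against the GC content of the longest transcript, for the 10 members (points, approximate SE bars) and all tested genes (grey bars from the lower to the upper quartile, black lines for the medians of GC bins). The bin medians run from −3.05 to 1.94; HSP90AA1 lies just below the median of its bin and the other members above theirs, HSPA14 by the least.

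The promoters bear on the names inducible and constitutive. Heat shock factors bind inverted repeats of GAA, and RefSeq promoters on GRCh38.p14 (from 250 bases before to 50 after the start) were searched on both strands for GAANNTTC, held by 6.77% of 35116 promoters, TTCNNGAA, held by 7.74%, and the 3-unit motif of GAANNTTC followed directly by NNGAA, or its reverse complement, held by 0.490%; the longer motif contains the shorter ones. The 3-unit motif occurred in promoters of HSPA8 (2 matches), HSP90AB1 (2 matches in 1 of its 3 promoters) and HSP90AA1 (1 match in 1 of its 2 promoters). HSPA1A, HSPA1B and HSPA9 held 1 match to a shorter motif each, HSPA4, HSPH1 and TRAP1 none, and HSPA14 had no entry. Only exact matches within this window were counted, so elements with an imperfect unit or farther away were missed. Matches in capitals are shown for the HSP90 pair and HSPA1B, at chr6:44247762-44247859 (plus strand), chr14:102087089-102087148 (minus strand) and chr6:31827617-31827656 (plus strand); they describe letters, not binding.
HSP90AB1: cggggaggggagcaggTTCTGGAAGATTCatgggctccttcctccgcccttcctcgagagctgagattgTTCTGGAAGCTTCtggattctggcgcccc
HSP90AA1: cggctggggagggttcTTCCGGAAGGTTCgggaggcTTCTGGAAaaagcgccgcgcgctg
HSPA1B: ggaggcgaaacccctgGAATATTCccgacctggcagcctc
Both HSP90 genes hold the 3-unit motif, and their messages went in opposite directions under TMM scaling, although both were higher under ERCC scaling.

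Of 54 other genes of the chaperone system 52 were tested; by share 21 were higher, 20 lower and 11 did not pass, beside 32.6% of all tested genes higher and 48.2% lower. Their median log2 fold change was −0.25, beside −0.96 for all genes. Under ERCC scaling 42 were higher and 0 lower, beside 58.4% and 2.33% of all tested genes. The list medians were −1.23 for the other HSP70, HSP90 and HSP110 genes, −0.18 for HSP70 co-chaperones and exchange factors, 1.02 for HSP90 co-chaperones and −0.57 for heat shock factors and their other classic targets, against 2.59 for the 10 members.

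Among the 9 other HSP70, HSP90 and HSP110 genes tested, 1 was higher and 5 were lower by share. The higher one was HYOU1, an HSP110-like chaperone of the endoplasmic reticulum, with 355 and 327 CPM against 29.9 and 47.3 CPM (log2 3.15, edgeR adjusted p = 6.89e-10). HSP90B1, the HSP90 of the endoplasmic reticulum, had 8.41 and 4.28 CPM with the fusion and 58.9 and 40.7 CPM without. By share HSP90B1 was lower (log2 −2.96, adjusted p = 2.41e-06), and under ERCC scaling it had log2 0.37 (adjusted p = 0.481).

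Of 13 HSP70 co-chaperones and exchange factors 6 were higher and 5 lower by share. BAG6, a chaperone of tail-anchored and mislocalised proteins, had 1090 and 1111 CPM against 75.4 and 68.2 CPM (log2 3.94, edgeR adjusted p = 2.22e-12), and STUB1, the ubiquitin ligase that marks HSP70 clients, 294 and 303 CPM against 25.9 and 21.3 CPM (log2 3.65). Of 16 HSP90 co-chaperones 9 were higher and 4 lower by share. STIP1, which joins HSP70 to HSP90, had 593 and 558 CPM against 77.6 and 92.3 CPM (log2 2.76, edgeR adjusted p = 9.57e-11). FKBP4, an immunophilin of steroid receptor complexes, and UNC45A, a myosin chaperone, were higher by log2 3.94 and 3.44.

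Of 14 heat shock factors and classic targets 5 were higher and 6 lower by share. HSF1, the main heat shock factor, had 442 and 478 CPM against 32.1 and 30.8 CPM (log2 3.87, edgeR adjusted p = 9.20e-12). SERPINH1, the collagen chaperone, and DNAJB1, a heat-inducible partner of HSP70, were higher by log2 3.65 and 2.67. With the GC trend removed these genes kept their direction and passed, many with smaller values on the log2 scale: HSF1 1.38, STUB1 1.13, UNC45A 1.66, STIP1 1.74, BAG6 2.19, HYOU1 2.14, SERPINH1 2.42, DNAJB1 2.03, FKBP4 3.65 and HSP90B1 −1.37.

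**Figure D5:**
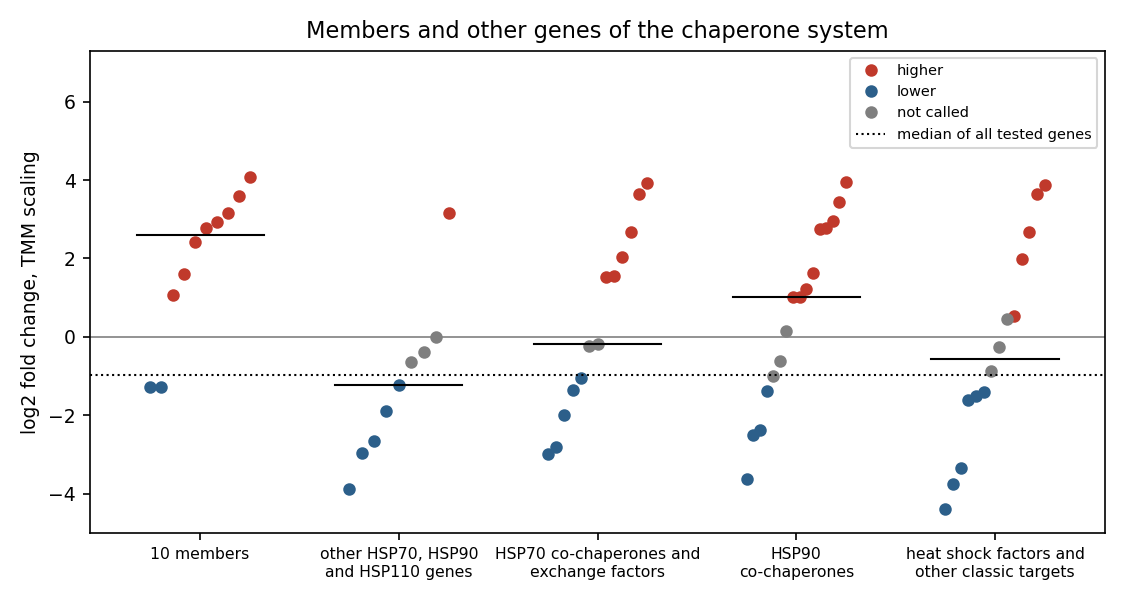
Log2 fold change (TMM scaling) of the 10 members and of the tested genes of 4 chaperone lists; colours give the call at adjusted p under 0.05, solid bars the list medians, and the dotted line the median of all tested genes (−0.96). The members centre on 2.59, and every other list spans both directions.

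Likeness was measured as the Euclidean distance in log2 CPM over the 4 libraries, among 3379 named genes of at least 50 CPM on average. AP3D1 (0.215), VIM (0.294) and MCM7 (0.332) lay nearest HSPA8, and RPS9 (0.233), ENO1 (0.279) and SRRT (0.301) nearest HSP90AB1. RPS15A (0.390) and RPLP1 (0.430) were among the genes nearest HSP90AA1. HSPA1A itself lay far below the 50 CPM required of candidates, so its large distances were fixed in advance. The closest candidate was ZNF71 at 7.40.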

How the data were processed

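The members and gene lists were chosen with earlier results of these data known. The deposited gene-level table holds expected counts: featureCounts 2.0.1 counted reads aligned with STAR 2.7.10a after FastQC 0.11.9 and Trim Galore 0.6.7, on hg38/GRCh38, per the submitters' processing notes; some values are fractional, the rule that made them is not given in the sources used here, and 5 lines of 1 broken gene were left out. The authors' DESeq2 1.36.0 table gives mean normalized counts (a signal), log2 fold changes, Wald scores and p-values, per the file headers.

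Counts were rounded and tested with edgeR 4.0.16 (R 4.3.3; TMM without ERCC rows, filterByExpr, robust quasi-likelihood, Benjamini-Hochberg over all tested genes), after a test on simulated data. Ratios used exact two-sided permutation over libraries. TPM used deposited gene lengths. GC content came from GENCODE 29 and promoters from RefSeq. Named were all members, in each list the 2 genes with the smallest p and the 2 of highest mean CPM, the 2 pseudogenes with most counts, and the nearest genes of 4 members, of which 1 is not reported here. Reads carried no molecular identifiers named in the labels, so intervals and floors cover counting error only. Alternatives were DESeq2 1.42.0, limma 3.58.1 (voom), other scalings and filters, and leaving out each library.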

Additional observations from a re-analysis of the deposited data

How the results depend on the processing

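With ERCC scaling 11960 of the tested genes were higher and 477 lower (96.2% of calls higher, against 40.4% with TMM), 0 members and 0 genes of the other chaperone lists were lower, 42 genes of those lists were higher, and HSP90AA1 (2.07), HSPA14 (2.08) and HSP90B1 (0.37) turned direction. With the stricter filter 8014 of 10051 tested genes passed (4035 higher, 3979 lower). Of 9 tested members 5 were higher and 2 lower, HSPA4 turned to −0.13, and HSPA1A was not tested. The members lower numbered 1 with the GC trend removed, beside 8118 of 20476 tested genes. They also numbered 1 with overlapping loci added (HSPA14 at 0.15), beside 9866 of 20474 tested genes. The cause was not tested. Leaving out each library gave 8 to 10 members passing (7 to 8 higher, 1 to 2 lower), 13291 to 14495 genes over all, and 55.4 to 62.0 for the members' ratio per ERCC count; the HSP90 ratio difference stayed between 3.52 and 3.85. With an arm of 1 library, that library is assumed to vary like the others. With the replicate number as a block 10 members passed, 8 higher and 2 lower, beside 6545 higher and 8496 lower of 20476 tested genes. The HSP90 ratio difference was then 3.68. Deviations of same-numbered libraries correlated by 0.0032 over 9857 genes. The labels do not say whether same-numbered libraries shared a preparation, and counting error can hide such sharing. With the noncoding locus added to HSPA1B, chosen after the data were seen, the HSPA8 ratio difference was 1.07 (main value 0.82). With counts of the members' pseudogenes added to their parents, the HSPA8 ratio difference was 0.60 and the HSP90 ratio difference 3.64. HSPA1A has 2 counts in EPN24.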

Other observations

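Processed pseudogenes of the members, copies without introns scattered over the genome, took different shares in the groups. Of 27 such loci, 9 had a count in EPN24-Cas13d and 26 in EPN24. More genes of every kind were also detected in EPN24. Over all genes, 15816 had at least 10 counts in the EPN24-Cas13d libraries together, and 25351 in the EPN24 libraries. The share of all genes or all pseudogenes with any count was not taken, so this contrast may not be particular to these loci. For the 16 pseudogenes of HSPA8 6 and 2 counts were found with the fusion, against 71 and 21 without it. HSPA8 itself had 6812 and 6190.5 counts with the fusion and 273 and 305 without. Pooled over the libraries of a group, its pseudogenes came to 0.0615% and 15.9% of its counts. These shares thus also move with the parent's counts, and the 2 EPN24 libraries differed. Pseudogenes of HSP90AB1 came to 0.270% and 7.45% of their parent, those of HSP90AA1 to 0.323% and 4.23%, and that of HSPA9 to 0.119% and 3.39%. HSP90AB3P had the most, with 6 and 6 counts with the fusion against 20 and 4, followed by HSPA9P1 with 4 and 2 against 8 and 4. Reads that match a parent and its copy may be assigned to either, and the part of this in the shares was not tested.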
